A study of Mus musculus with 8 samples.

Results

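A set of 9 cell-surface adhesion genes were followed across naive CD4+ T cells and 3 cultured states of mouse CD4+ T cells: the integrin subunit genes Itgae, Itgb7, Itga4, Itgb1, Itga6, Itgav, Itgal and Itgb2, and Cd44. They were taken by symbol from the deposited table, as 9 of its 34745 genes, and all 9 passed the filter on low counts that left 14690 genes for testing. RNA-seq was available from 8 libraries of splenic CD4+ T cells of wild-type C57BL/6 mice, in 4 groups of 2. Naive cells were sampled straight from the spleen. Th0 cells had received anti-CD3 and anti-CD28 for 3 days, and the other cells had been held for 3 days in Th17 or in Treg conditions. The cytokines of those conditions, the age of the mice and whether a group's libraries came from separate animals or cultures are not given in the sources used here, so each p-value reflects the spread between libraries alone, and that spread may be technical.

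Integrins are paired receptors of an alpha and a beta chain, and a chain reaches the cell surface only with a partner. On lymphocytes, αLβ2 (LFA-1) binds ICAMs, α4β1 (VLA-4) binds VCAM-1 and fibronectin, α4β7 binds MAdCAM-1 on gut vessels, and αEβ7 (CD103) binds E-cadherin on epithelial cells. The beta chains are therefore shared: Itgb7 serves αE and α4, and Itgb1 serves α4, α6 and αv. CD44 is not an integrin but a receptor for hyaluronan, widely used as a marker of antigen-experienced T cells.

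Total counts per library ran from 12504463 to 22443368, and replicates correlated at a Pearson r of 0.984 to 0.987 across genes, which are not independent. In all 4 groups the replicates differed by more than sampling noise, with a chi-square per degree of freedom of 8.93 to 17.9. Cd4 (616 to 885 CPM, the counts after TMM scaling for library size) and the summed pan-T-cell markers (4400 to 6020 CPM) were present in every library. Foxp3, which defines regulatory T cells, had 317 and 269.7 CPM in Treg, 95.01 and 101 in naive and 4.70 to 9.93 in Th0 and Th17. The libraries of Il17a, the cytokine gene that names Th17 cells, overlapped between Treg (57.5 and 34.3 CPM) and Th17 (60.9 and 33.7). Naive libraries also held RNA of other cell types: 19 myeloid and dendritic cell markers summed to 4540 and 4350 CPM there, against 28.2 to 125 CPM in the cultured libraries, and Csf1r, the receptor for a macrophage growth factor, was at 862 and 820.4 CPM against 0.154 to 7.86. The 12 B cell markers summed to 1880 and 1510 CPM in naive, 186 to 249 in Th0 and Treg, and 629 and 671 in Th17. The CD8 genes Cd8a and Cd8b1 summed to 426 and 469 CPM in Treg against 176 in each Th0 library. Most of the 9 adhesion genes are also expressed by those other leukocytes, and in bulk RNA fewer cells of a type and less RNA per cell cannot be told apart. What these cells add to the values below was not tested.

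Levels of different genes are compared here per length, as deposited FPKM (fragment counts scaled by gene length and library total). The leukocyte beta chains stood highest in every group: Itgb7 had 194.7 and 199.4 FPKM in naive and Itgb2 had 143 and 149.6. Below them in naive cells came Itgb1 (87.8 and 82.9 FPKM), Itga4 (67.0 and 74.6), Itgal (60.2 and 61.0), Cd44 (19.2 and 22.0), Itga6 (11.96 and 11.94), Itgae (5.52 and 5.24) and Itgav (2.19 and 4.67). The libraries of neighbours in that order did not overlap in naive or Th0 cells. In Th17 the libraries of Itgb2 and Itgb7 overlapped, and those of Itgav spread across its neighbours, while in Treg those of Cd44 and Itga4 overlapped. Itgae was last in Th0 (1.11 and 0.946 FPKM) and in Th17 (3.56 and 3.08) but seventh in Treg (13.6 and 12.4), above Itga6 and Itgav.

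These orders depend on the length assigned to a gene. The deposited FPKM imply 12512 bases for Cd44, against 5614 in its longest coding transcript in GENCODE M21, and 2791 against 2683 for Itgb7. With the longest coding transcript as the length, a choice made after the data were seen, Itgb2 came before Itgb7 in naive and Treg, Itga6 moved above Itgb1 in Th0 and above Itga4 in all 3 cultured groups, and Cd44 moved above Itgb1 in Th17 and Treg. Itgae was then eighth in Treg, below Itga6, and last in naive, below Itgav. Comparisons of 1 gene between groups, which follow, do not depend on length.

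**Figure D1:**
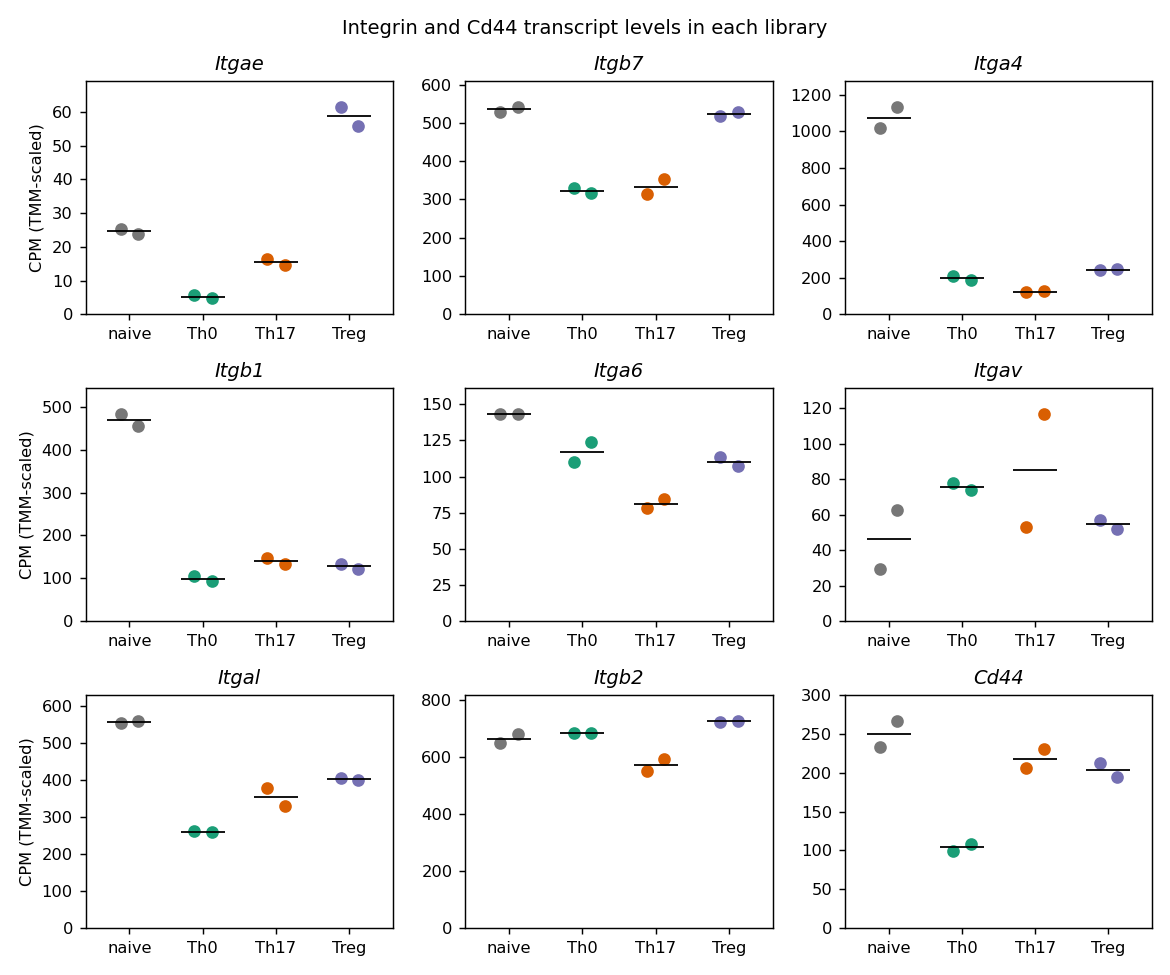
Level of each of the 9 genes in each of the 8 libraries (y axis, TMM-scaled CPM from 0), by group on the x axis; points are libraries and the bar is the mean of the 2. Itgae is highest in Treg (61.4 and 55.9 CPM), Itga4 and Itgb1 are highest in naive, Cd44 is lowest in Th0, and the libraries of Itgav lie far apart in naive and in Th17.

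Itgae encodes the αE chain of αEβ7, the E-cadherin receptor of intraepithelial lymphocytes and of many regulatory T cells. It lies at chr11:73090583-73147446 on the plus strand of GRCm38. Its level was 25.2 and 23.9 CPM in naive, 5.61 and 4.77 in Th0, 61.4 and 55.9 in Treg, and 16.3 and 14.6 in Th17. No groups overlapped, and the order Treg, naive, Th17, Th0 separated at each step. Against Th0, Itgae was 11.25-fold higher in Treg (log2 3.49, SE 0.15, edgeR adjusted p = 2.7e-06) and 2.97-fold higher in Th17 (log2 1.57, SE 0.15, adjusted p = 0.000121). Against naive, it fell by 2.23 on the log2 scale in Th0 (SE 0.15, edgeR adjusted p = 1.31e-06) and by 0.67 in Th17 (adjusted p = 0.00184), and rose by 1.26 in Treg (adjusted p = 3.23e-05). Treg exceeded Th17, with a log2 difference of Th17 minus Treg of -1.92 (SE 0.13, edgeR adjusted p = 2.74e-05). These 6 calls held in every alternative run except that the call for Th17 against naive was lost in a test against a 2-fold change (adjusted p = 1).

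A gene on the opposite strand, Gsg2 (Haspin), which encodes a mitotic histone kinase, lies within Itgae, and whether the counts used strand is not given in the sources used here, so reads of the pair cannot be told apart. Gsg2 was at 8.72 and 8.93 CPM in naive, 17.8 and 22.8 in Th0, 43.8 and 44.5 in Treg, and 28.5 and 29.2 in Th17. It was thus higher in Th0 than in naive, where Itgae was lower, and highest in Treg, where Itgae was highest too. Markers of other cells that can carry αE were also higher in Treg than in Th0. For the myeloid and dendritic cell markers, the sums were 125 and 102 CPM in Treg against 34.5 and 28.2 in Th0. Both Th17 libraries, at 115 and 121 CPM, lay between the Treg values. Naive stood far above all of them, at 4540 and 4350 CPM, with Itgae below its Treg level. The CD8 markers had 426 and 469 CPM in Treg against 176 in each Th0 library, 122 in each Th17 library, and 91.6 and 82 in naive. The γδ and innate-like T cell markers had 28.3 and 26.8 CPM in Treg and 13.1 and 10.9 in Th0, but 36.8 and 33.2 in naive, above Treg, where Itgae was highest. The NK cell markers had 79.4 and 68.8 CPM in Treg, 15.4 and 15.6 in Th0, and 84.3 and 79 in naive. These sums hide markers that differ in direction. In Treg against naive, 1 of the 7 was called higher and 4 lower (71.4% called, beside 56.6% of all tested genes), with a median log2 of -1.91. In Treg against Th0, 3 were higher and 0 lower (42.9% called, beside 46.2%). Foxp3 was at 95.01 and 101 CPM in naive, the group with the next highest Itgae, against 5.94 and 4.70 in Th0. The part of any of these in the Itgae differences was not tested.

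Itgb7 encodes the β7 chain shared by αEβ7 and α4β7 (chr15:102215995-102231935, minus strand). Its level was 529.6 and 541.5 CPM in naive, 329.9 and 316 in Th0, 519 and 528 in Treg, and 314 and 353 in Th17. The groups fell into a higher pair, naive and Treg, and a lower pair, Th0 and Th17, with no overlap between the pairs. Itgb7 fell by 0.73 on the log2 scale from naive to Th0 (SE 0.08, edgeR adjusted p = 5e-05) and was higher in Treg than in Th0 by 0.70 (SE 0.08, adjusted p = 0.00025). Within the pairs no difference was called: Treg minus naive was -0.03 (SE 0.08, edgeR adjusted p = 0.753) and Th17 minus Th0 was 0.05 (SE 0.08, adjusted p = 0.702). The latter turned to -0.026 without Th17 replicate 3. Th17 was also below Treg (log2 -0.65, SE 0.08, edgeR adjusted p = 0.000679).

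Itga4 encodes the α4 chain, which pairs with β1 or β7 (chr2:79255426-79333123, plus strand). Its level was 1018 and 1133 CPM in naive, 211 and 189.7 in Th0, 240.2 and 246 in Treg, and 120 and 127 in Th17. Both naive libraries stood above all cultured ones, and both Th17 libraries stood below all others. Relative to naive, Itga4 was at 18.6% in Th0 (log2 -2.42, SE 0.10, edgeR adjusted p = 7.05e-08), at 22.6% in Treg (log2 -2.14) and at 11.5% in Th17 (log2 -3.12, SE 0.10, adjusted p = 4.61e-08). It was lower in Th17 than in Th0 (log2 -0.70, SE 0.09, edgeR adjusted p = 0.000722). The small rise in Treg over Th0 (log2 0.28, SE 0.09, edgeR adjusted p = 0.0317) was not called with RLE scaling (0.22, adjusted p = 0.073), with DESeq2 (0.22, adjusted p = 0.0765), with no filter (0.24, adjusted p = 0.0517), in a fit of those groups alone (0.23, adjusted p = 0.0628), or without Th0 replicate 3 (0.17, adjusted p = 0.244), Treg replicate 2 (0.31, adjusted p = 0.0859) or Treg replicate 3 (0.28, adjusted p = 0.105). Cerkl, on the opposite strand and overlapping Itga4, had 3.34 to 8.39 CPM, small beside Itga4 in every library.

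Itgb1 encodes the β1 chain, the common partner of the receptors for fibronectin, laminin and collagen (chr8:128685654-128733200, plus strand). It had 484 and 456 CPM in naive, 104 and 93.7 in Th0, 134 and 121 in Treg, and 148 and 133 in Th17. All cultured libraries were below both naive libraries, and those of Th17 and Treg overlapped. From naive, Itgb1 fell by 2.25 on the log2 scale in Th0 (SE 0.10, edgeR adjusted p = 1.48e-07), by 1.74 in Th17 (adjusted p = 6.68e-07) and by 1.88 in Treg (adjusted p = 4.89e-07). Over Th0 it was higher in Th17 (log2 0.50, SE 0.10, edgeR adjusted p = 0.00559) and in Treg (log2 0.37, SE 0.10, adjusted p = 0.0142). The Treg difference was not called without Th0 replicate 3 (0.26, adjusted p = 0.124) or without Treg replicate 2 (0.30, adjusted p = 0.102).

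Because Itga4, Itgb1 and Itgb7 encode the chains of α4β1 and α4β7 and were each lower in Th0 than in naive, their promoters are shown. The sequences are RefSeq promoters on GRCm38.p6, from 250 bases before the transcript start to 50 after it, read 5′ to 3′ on the strand of the gene, and entries were matched for 5 of the 9 genes (Cd44, Itga4, Itgav, Itgb1 and Itgb7). The windows are chr2:79255176-79255475 on the plus strand for Itga4, chr8:128685404-128685703 on the plus strand for Itgb1 and chr15:102231886-102232185 on the minus strand for Itgb7. Capitals mark matches, on either strand, to TGTGGT (RUNX), GGAAGT (ETS), CAGACA (SMAD) or TATAAA (TBP).
Itga4: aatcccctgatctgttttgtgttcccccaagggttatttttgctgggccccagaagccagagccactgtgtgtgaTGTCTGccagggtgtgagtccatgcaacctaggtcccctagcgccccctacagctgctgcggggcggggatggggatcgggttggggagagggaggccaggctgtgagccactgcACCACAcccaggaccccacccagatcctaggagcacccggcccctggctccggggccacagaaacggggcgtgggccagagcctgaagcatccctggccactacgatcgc
Itgb1: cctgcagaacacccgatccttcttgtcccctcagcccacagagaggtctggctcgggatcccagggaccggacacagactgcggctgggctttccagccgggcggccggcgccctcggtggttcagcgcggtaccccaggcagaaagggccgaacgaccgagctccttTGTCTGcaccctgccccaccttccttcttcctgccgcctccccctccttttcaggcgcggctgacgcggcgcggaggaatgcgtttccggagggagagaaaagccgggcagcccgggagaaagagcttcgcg
Itgb7: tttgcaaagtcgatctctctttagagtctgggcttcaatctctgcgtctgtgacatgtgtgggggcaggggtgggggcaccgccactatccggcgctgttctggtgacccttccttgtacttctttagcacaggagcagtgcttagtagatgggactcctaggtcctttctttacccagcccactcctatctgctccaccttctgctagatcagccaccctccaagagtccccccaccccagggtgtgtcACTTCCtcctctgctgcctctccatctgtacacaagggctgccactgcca
The Itga4 window held a RUNX match at position -60 and a SMAD match at position -175, the Itgb1 window a SMAD match at position -82 and the Itgb7 window an ETS match at position 1, each on the strand opposite to the gene, counting the transcript start as 1. No motif of the 4 was in all 3 windows. Among 32851 RefSeq promoters of the same length, 16.8% held the RUNX letters, 23.8% the ETS letters, 21% the SMAD letters and 13.6% the TBP letters. The printed matches do not overlap one another. The windows differ in base composition: Itgb1 had 67.3% GC and 27 CpG dinucleotides, Itga4 64.3% and 10, and Itgb7 56.3% and 5, beside a median of 52.7% and 7 over all promoters. A match of letters is a description and not a bound site.

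Itga6 encodes the α6 chain of a laminin receptor (chr2:71745616-71858416, plus strand). It had 143 and 143 CPM in naive, 109.7 and 124 in Th0, 113 and 107 in Treg, and 78.0 and 84.3 in Th17. Naive was highest, Th17 lowest, and Th0 and Treg overlapped. Itga6 was lower in Th17 than in naive (log2 -0.82, SE 0.10, edgeR adjusted p = 6.77e-05), Th0 (log2 -0.53, SE 0.10, adjusted p = 0.00393) and Treg (log2 -0.44, SE 0.10, adjusted p = 0.00921), the last not called without Treg replicate 2 (-0.40, adjusted p = 0.0711). The smaller decrease from naive to Th0 (log2 -0.29, SE 0.09, edgeR adjusted p = 0.0207) was not called without naive replicate 1 (adjusted p = 0.0836), naive replicate 2 (adjusted p = 0.0723) or Th0 replicate 1 (-0.19, adjusted p = 0.18). The decrease from naive to Treg (log2 -0.38, adjusted p = 0.00743) was not called without Treg replicate 3 (-0.33, edgeR adjusted p = 0.0625).

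Itgav encodes the αv chain, which pairs with several beta chains, binds vitronectin and fibronectin, and in some pairs activates latent TGF-β (chr2:83724397-83806916, plus strand). It had 29.4 and 62.7 CPM in naive, 77.9 and 73.7 in Th0, 56.9 and 52.1 in Treg, and 53.1 and 117 in Th17. The replicates lay far apart in naive and Th17 and close together in Th0 and Treg, so Th17 overlapped each other group and naive overlapped Treg. No difference was called: the log2 values ran from -0.47 (Treg minus Th0, SE 0.38, edgeR adjusted p = 0.332) to 0.88 (Th17 minus naive, SE 0.38, adjusted p = 0.067). Single libraries and the fit both moved this result. Without naive replicate 2, Itgav was higher than in naive in Th0 (1.36, edgeR adjusted p = 0.0119) and Th17 (1.52, adjusted p = 0.00815). Without Th17 replicate 2 it was higher in Th17 than in naive (1.34, adjusted p = 0.00961) and Treg (1.09, adjusted p = 0.0437), and without Th17 replicate 3 the difference between Th17 and Treg turned to -0.036 and that between Th17 and Th0 to -0.50. Without naive replicate 1, Treg minus naive turned to -0.20. With no filter on low counts, the differences from naive to Th0 and Th17 and from Treg to Th0 and Th17 were called (edgeR adjusted p from 5.44e-07 to 0.00543). In a fit of the Treg and Th0 libraries alone, Treg was called lower than Th0 (-0.52, edgeR adjusted p = 0.00557).

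Itgal encodes the αL chain of LFA-1, the ICAM receptor of the immune synapse and of arrest on vessels (chr7:127296260-127335138, plus strand). It had 553 and 559.9 CPM in naive, 261 and 258 in Th0, 404 and 400.3 in Treg, and 378 and 330.4 in Th17. Naive was highest and Th0 lowest, with Th17 and Treg between them and apart from both. From naive, Itgal fell by 1.10 on the log2 scale in Th0 (SE 0.09, edgeR adjusted p = 3.92e-06), by 0.65 in Th17 (adjusted p = 0.000141) and by 0.47 in Treg (adjusted p = 0.00124). Over Th0 it was higher in Th17 (log2 0.45, SE 0.09, edgeR adjusted p = 0.00474) and Treg (log2 0.63, SE 0.09, adjusted p = 0.000437). Th17 minus Treg was -0.18 (SE 0.09, edgeR adjusted p = 0.14), and -0.29 without Th17 replicate 2, which was called (adjusted p = 0.0289).

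Itgb2 encodes the β2 chain of LFA-1 and of the myeloid integrins (chr10:77530252-77565708, plus strand). It had 648 and 679 CPM in naive, 684 and 685 in Th0, 720.3 and 727 in Treg, and 552 and 591 in Th17. Its whole range, 552 to 727 CPM, was narrower in proportion than that of any other gene of the set, with Th17 lowest and Treg highest. Th0 minus naive was 0.05 (log2, SE 0.08, edgeR adjusted p = 0.617), and its sign turned with upper-quartile scaling (-0.016) and with library totals (-0.10). Th17 was below Treg (log2 -0.34, SE 0.08, edgeR adjusted p = 0.0107), not called without Treg replicate 2 (adjusted p = 0.0589). It was also below Th0 (log2 -0.26, adjusted p = 0.0326) and naive (log2 -0.21, edgeR adjusted p = 0.0339), but leaving out naive replicate 1 or 2, Th17 replicate 2, or Treg replicate 2 or 3, or fitting the compared groups alone, ended both calls, and leaving out either Th0 library ended the former (edgeR adjusted p from 0.0533 to 0.184). Treg minus Th0 (log2 0.08, edgeR adjusted p = 0.417) was called only with library totals (0.24, adjusted p = 0.0194).

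Cd44 encodes the hyaluronan receptor (chr2:102811141-102901665, minus strand). It had 234 and 268 CPM in naive, 99.0 and 109 in Th0, 212 and 194 in Treg, and 207 and 230.4 in Th17. Th0 stood below every other library, and Th17 overlapped Treg. Cd44 was 2.11-fold higher in Th17 than in Th0 (log2 1.07, SE 0.11, edgeR adjusted p = 0.000146) and 1.96-fold higher in Treg (log2 0.97, SE 0.11, adjusted p = 0.000149), and it was lower in Th0 than in naive (log2 -1.27, SE 0.11, adjusted p = 6.03e-06). Th17 and naive did not differ past the threshold (log2 -0.20, SE 0.10, edgeR adjusted p = 0.123). The Treg value was below naive (log2 -0.30, SE 0.10, edgeR adjusted p = 0.0321), but not called without naive replicate 2 (-0.20, adjusted p = 0.232), Treg replicate 2 (-0.36, adjusted p = 0.0557) or Treg replicate 3 (-0.23, adjusted p = 0.191). Counts per gene do not resolve Cd44 splice forms.

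**Figure D2:**
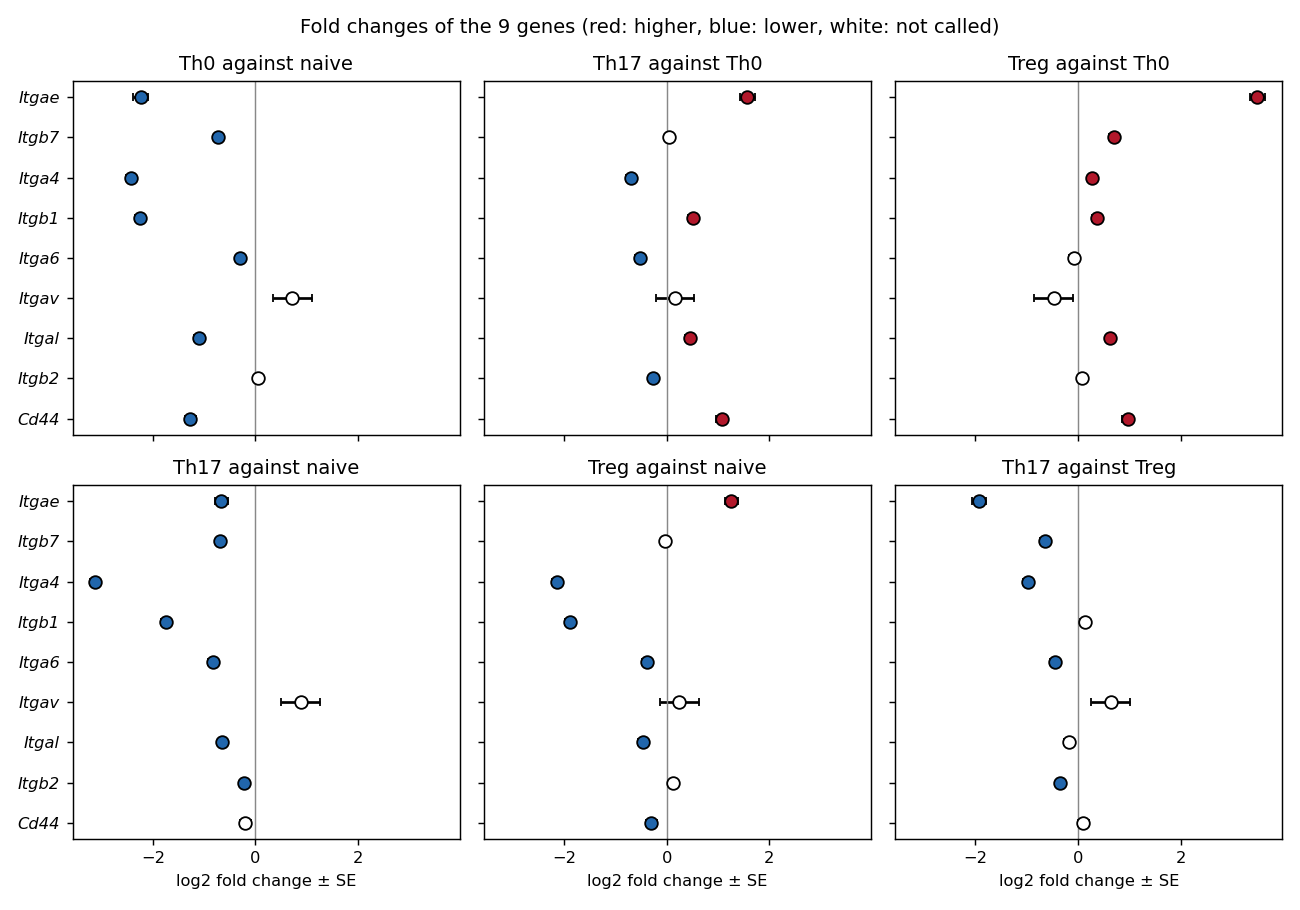
Log2 fold change of each of the 9 genes (points) with its standard error (bars) in the 6 comparisons, from 1 edgeR fit of all 8 libraries; red is called higher, blue called lower and white not called at an adjusted p of 0.05. Only Itgae lies above 3, in Treg against Th0, and Itga4 is the lowest in each comparison with naive.

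Counted by comparison, 7 of the 9 genes were lower and 0 higher in Th0 than in naive, where 67.7% of all tested genes were called in either direction. The median log2 change of the 9 was -1.10, against -0.08 over all tested genes. In Th17 against Th0, 4 were higher and 3 lower (28.7% of all genes called; medians 0.16 and 0.05), and in Treg against Th0, 6 were higher and 0 lower (46.2% called; medians 0.37 and 0.09). In Th17 against Treg, 0 were higher and 5 lower (29.2% called; medians -0.34 and -0.03). That count was 3 without Treg replicate 2 and 7 without Th17 replicate 2. Against naive, 7 were lower and 0 higher in Th17 (63.2% called; medians -0.67 and -0.03), and 5 were lower and 1, Itgae, higher in Treg (56.6% called; medians -0.30 and -0.01). By direction, 31.3% of all tested genes were higher and 36.4% lower in Th0 against naive. These shares were 16.1% and 12.6% in Th17 against Th0, 25.7% and 20.6% in Treg against Th0, and 14.8% and 14.5% in Th17 against Treg. Against naive they were 30.4% and 32.8% in Th17, and 27.6% and 29% in Treg. Of the 9 genes, 77.8%, 77.8%, 66.7%, 55.6%, 77.8% and 66.7% were called, in the same order. These comparisons share their Th0, naive, Th17 or Treg libraries and are not independent of one another.

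Scaling moves the balance over all genes. Of the called genes, 56.1% were higher in Th17 than in Th0, and 72.2% with library totals in place of TMM factors. The same shares were 55.5% and 68.9% for Treg against Th0. The directions of the called members stayed the same with library totals, while Itgb2 in Th17 against Th0 was then not called and Itgb2 in Treg against Th0 was. The median of all genes moved from 0.05 to 0.17 in Th17 against Th0, from 0.09 to 0.25 in Treg against Th0 and from -0.08 to -0.23 in Th0 against naive.

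Ratios within a library show how the partner transcripts of 1 receptor stood to each other, as ratios of FPKM. Itgae per Itgb7 was 0.0283 and 0.0263 in naive, 0.0101 and 0.009 in Th0, 0.0705 and 0.063 in Treg, and 0.0308 and 0.0246 in Th17. Itga4 per Itgb7 was 0.344 and 0.374 in naive, 0.114 and 0.108 in Th0, 0.0828 and 0.0835 in Treg, and 0.0683 and 0.0643 in Th17. Both α chains that share β7 were thus below it per length (Itga4 in naive at 0.528 and 0.575 with the longest coding transcript as length), and they moved apart: the ratio with Itgae was highest in Treg and that with Itga4 highest in naive. Itgae per Itga4, a pair chosen after the values were seen, was 0.0824 and 0.0702 in naive, 0.0885 and 0.0837 in Th0, 0.852 and 0.755 in Treg, and 0.451 and 0.382 in Th17. Naive and Th0 were therefore close in this ratio although both transcripts were lower in Th0.

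For the β1 receptors, Itga4 per Itgb1 was 0.763 and 0.9 in naive, 0.734 in each Th0 library, 0.649 and 0.736 in Treg, and 0.294 and 0.347 in Th17, the group that stood apart. Itga6 per Itgb1 was 0.136 and 0.144 in naive, 0.484 and 0.609 in Th0, 0.388 and 0.405 in Treg, and 0.242 and 0.291 in Th17, with no overlap between groups. For LFA-1, Itgal per Itgb2 was 0.422 and 0.408 in naive, 0.188 and 0.186 in Th0, 0.277 and 0.272 in Treg, and 0.339 and 0.276 in Th17. Naive was highest and Th0 lowest, and Th17 overlapped Treg. Itgb7 per Itgb1, also chosen after the values were seen, was 2.22 and 2.41 in naive and 4.3 to 8.82 in the cultured libraries. The other length moves every ratio of a pair by the same factor, which changes its size but not the order of the groups (Itga6 per Itgb1 then ran from 0.262 to 1.17). Transcript ratios do not measure paired receptors on the surface.

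**Figure D3:**
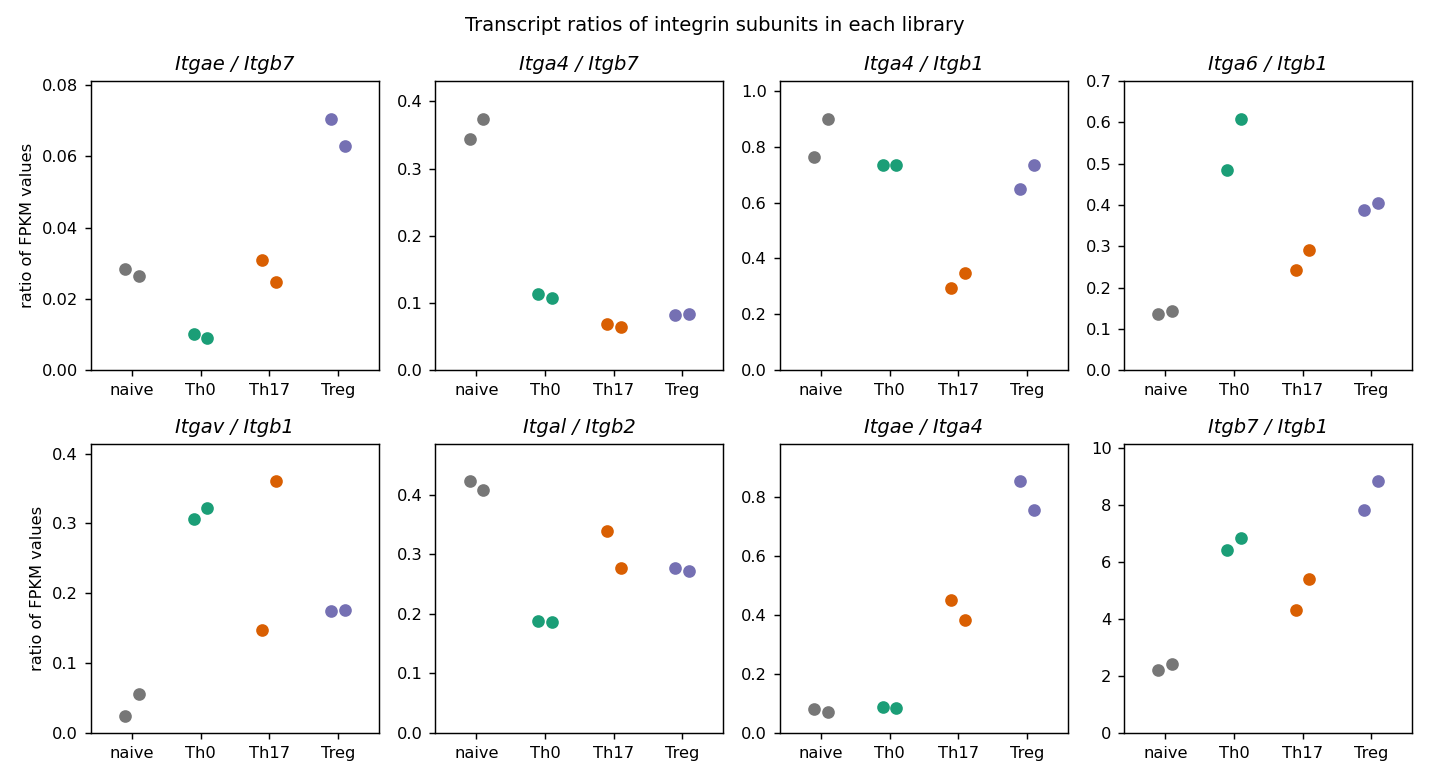
Ratios of FPKM between subunit transcripts in each library (y axis from 0, points are libraries, x axis the 4 groups). Itgae per Itgb7 is highest in Treg (0.0705 and 0.063) and Itga4 per Itgb7 in naive (0.344 and 0.374), while Itga4 per Itgb1 is lowest in Th17.

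Other integrin subunits were also measured: 16 of the 18 listed passed the filter. In Th0 against naive 2 were higher and 10 lower, in Th17 against Th0 7 higher and 1 lower, and in Treg against Th0 6 higher and 3 lower (medians -2.23, 1.48 and 0.19). These are 75%, 50% and 56.2% of the list, beside 67.7%, 28.7% and 46.2% of all tested genes, whose medians were -0.08, 0.05 and 0.09. Itga3, an α chain that pairs with β1 in a laminin receptor, was at 3.85 and 4.51 CPM in naive, 18.1 and 21.6 in Th0, 8.91 and 12.4 in Treg, and 118 and 128 in Th17. It was 6.19-fold higher in Th17 than in Th0 (log2 2.63, SE 0.17, edgeR adjusted p = 1.61e-05) and 11.6-fold higher than in Treg (log2 3.53, SE 0.18, adjusted p = 7.33e-06). Itga7, another laminin-binding α chain, was at 1.06 and 2.08 CPM in Th0 and 20.4 and 18.9 in Th17 (log2 3.67, SE 0.31, edgeR adjusted p = 6.48e-05). Its naive (10.5 and 11.5 CPM) and Treg libraries (7.66 and 10.96) lay between, so Th0 was lowest. Itga5, the fibronectin receptor chain, was higher in Treg than in Th0 (17.6 and 15.9 against 6.21 and 5.24 CPM; log2 1.55, SE 0.20, edgeR adjusted p = 0.00034). Itga5 was also above its Th0 level in naive (10.4 and 11.3 CPM) and in Th17 (15.4 and 11.9). Itgb3, a partner of αv, had 117 and 119 CPM in naive, 179 and 168 in Th0, 102 and 98.1 in Treg, and 90.7 and 78.5 in Th17.

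Several subunits of this list are also expressed by myeloid cells, and those named here were highest in naive, as the myeloid markers were. Itgad had 298 and 256 CPM in naive against 0.132 and 0 in Th0. Itgax (CD11c) had 233 and 218 CPM in naive, 1.19 and 2.23 in Th0, and 13.4 to 22.4 in Th17 and Treg. Itga9 had 85.0 and 78.0 CPM in naive against 0.594 and 0.231 in Th0. Itgam (CD11b) had 50.2 and 57.6 CPM in naive and 19.5 and 15.2 in Th0. Its Th17 (11.3 and 14.1 CPM) and Treg libraries (5.90 and 7.74) were below those of Th0, where the myeloid marker sums were lowest. Treg minus Th0 was -1.36 for Itgam (log2, SE 0.20, edgeR adjusted p = 0.000726). The summed myeloid and dendritic markers were 4540 and 4350 CPM in naive, 34.5 and 28.2 in Th0, 125 and 102 in Treg, and 115 and 121 in Th17, with 8 and 11 of the 19 at 0 in the Th0 libraries. Their part in these differences was not tested.

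**Figure D4:**
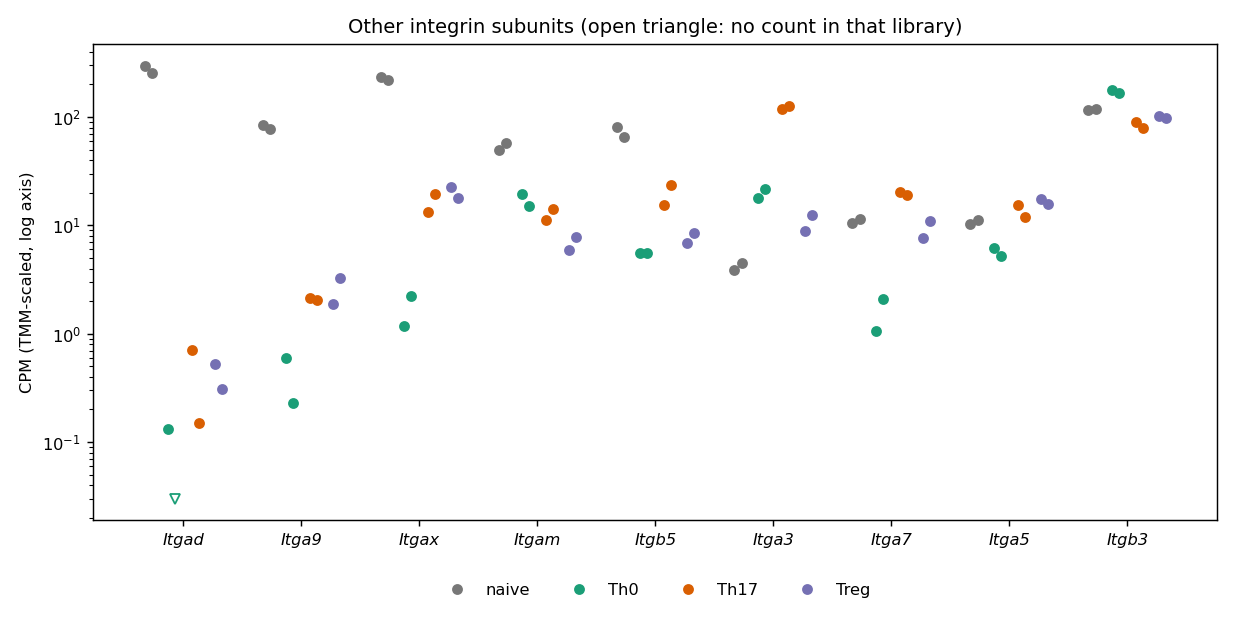
TMM-scaled CPM (log axis) of 9 other integrin subunit genes in each library; colours are groups, points are libraries and an open triangle is a library with no count. Itgad, Itga9 and Itgax are highest in naive, and Itga3 is highest in Th17 (118 and 128 CPM).

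Ligands and counter-receptors of the integrins were represented by 15 tested genes of 22 listed. In Th0 against naive 2 were higher and 10 lower, in Th17 against Th0 7 higher and 0 lower, and in Treg against Th0 10 higher and 1 lower (medians -2.18, 0.54 and 1.06). The shares called were 80%, 46.7% and 73.3%, beside the 67.7%, 28.7% and 46.2% of all genes. Vcam1, the ligand of α4β1, had 1078 and 1029 CPM in naive, 0.396 and 0 in Th0, 12.1 and 10.2 in Treg, and 10.5 and 4.32 in Th17. Fn1 (fibronectin) followed the same order of naive and Th0, with 45.8 and 54.4 CPM against 0.594 and 0.154. The myeloid markers given above were likewise highest in naive and lowest in Th0. Endothelial and stromal cell markers were also highest in naive, at 217 and 237 CPM against 61.6 to 98.2 in the cultured libraries. Most of each of these sums was Pecam1, which is also listed here among adhesion molecules of T cells. Pecam1 had 195 and 211 CPM in naive and 59.05 to 95.6 in the cultured libraries. The part of myeloid, endothelial or stromal cells in the Vcam1 and Fn1 values was not tested. Cdh1, which encodes E-cadherin, the αEβ7 ligand, had 6.22 and 6.03 CPM in naive, 0 and 0.154 in Th0, 5.37 and 4.98 in Treg, and 0.235 and 0.0757 in Th17. Cdh1 was named for its role after its values were seen.

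Lama5, a laminin chain bound by α3β1 and α6β1, went the other way: 1.78 and 1.39 CPM in naive against 137 and 166 in Th0, 108 and 145 in Treg, and 196 and 189.1 in Th17 (Th0 minus naive log2 6.58, SE 0.21, edgeR adjusted p = 3.09e-08). Lrrc32, which holds latent TGF-β at the cell surface, had 77.2 and 67.7 CPM in Treg against 34.9 and 34.6 in Th0 (log2 1.06, SE 0.25, edgeR adjusted p = 0.00699). Icam1, the LFA-1 ligand, had 119.6 and 107 CPM in naive, 30.5 and 35.7 in Th0, 53.4 and 49.2 in Treg, and 49.5 and 46.5 in Th17, and was higher in Th17 than in Th0 (log2 0.54, SE 0.12, edgeR adjusted p = 0.00936). Madcam1, the α4β7 ligand of gut vessels, had no count in any cultured library.

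Integrin activation genes and adaptors, which link the receptors to talin, Rap1 and actin, had 27 tested genes of 31 listed. In Th0 against naive 5 were higher and 16 lower, in Th17 against Th0 4 higher and 8 lower, and in Treg against Th0 9 higher and 8 lower (medians -0.48, -0.09 and 0.02), or 77.8%, 44.4% and 63% of the list against 67.7%, 28.7% and 46.2% of all genes. The 12 calls for Th17 against Th0 became 7 without Th0 replicate 1 and 7 without Th17 replicate 2, and the 17 for Treg became 11 without either Treg library. Rasgrp2, the exchange factor that activates Rap1, had 340 and 351 CPM in naive, 69.6 and 62.2 in Th0, 121 and 120.6 in Treg, and 61.6 and 67.5 in Th17. It was lower in Th0 than in naive (log2 -2.39, SE 0.10, edgeR adjusted p = 7.74e-08) and higher in Treg than in Th0 (log2 0.88, SE 0.09, adjusted p = 0.000134). Flna, filamin A, which binds integrin tails, had 1390 and 1438 CPM in naive, 314 and 363 in Th0, 664 and 584 in Treg, and 574 and 559 in Th17. The adaptor gene Fyb (ADAP) moved the opposite way, from 563 and 548 CPM in naive to 1188 and 1231 in Th0 (log2 1.12, SE 0.13, edgeR adjusted p = 6.4e-05), and was lower again in Treg (568 and 677 CPM; Treg minus Th0 log2 -0.96, adjusted p = 0.00051).

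Selectins, their ligands and the enzymes that glycosylate them had 16 tested genes of 19 listed. In Th0 against naive 4 were higher and 10 lower, in Th17 against Th0 11 higher and 3 lower, and in Treg against Th0 8 higher and 4 lower (medians -1.18, 0.95 and 0.63). Of the list, 87.5%, 87.5% and 75% were called, where 67.7%, 28.7% and 46.2% of all genes were. The 14 calls for Th17 against Th0 became 9 without Th0 replicate 1, 7 without Th0 replicate 3 and 8 without Th17 replicate 2. Spn (CD43) had 349 and 359 CPM in naive, 109.3 and 109.6 in Th0, 380.3 and 330.4 in Treg, and 228 and 181 in Th17. It was higher in Treg than in Th0 (log2 1.70, SE 0.12, edgeR adjusted p = 2.62e-05). Cd24a, a glycoprotein that can bind P-selectin, was highest in Th17, with 295 and 278 CPM against 185 and 156 in naive, 64.0 and 63.5 in Th0, and 33.0 and 34.8 in Treg (Th17 minus Th0 log2 2.17, SE 0.11, edgeR adjusted p = 4.9e-06). Cd24a is also a B cell gene, and the B cell markers in Th17 were 629 and 671 CPM against 186 to 249 in Th0 and Treg, but 1880 and 1510 in naive, where Cd24a was lower than in Th17. Their part in it was not tested.

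Partners of CD44 and genes of hyaluronan handling had 12 tested genes of 18 listed. In Th0 against naive 4 were higher and 5 lower, in Th17 against Th0 1 higher and 1 lower, and in Treg against Th0 3 higher and 1 lower (medians 0.13, 0.15 and 0.02), the last count being 2 in all without Treg replicate 2. At 75%, 16.7% and 33.3% called, the list lay near or under the 67.7%, 28.7% and 46.2% of all genes. Of the 2 calls for Th17 against Th0, 1 was left without either naive library, without Th0 replicate 3 or without Th17 replicate 2. Hmmr, a second hyaluronan receptor that also acts on the mitotic spindle, had 16.3 and 12.4 CPM in naive, 257 and 317 in Th0, 200.2 and 223 in Treg, and 235 and 317 in Th17. Its rise in Th0 (log2 4.33, SE 0.20, edgeR adjusted p = 1.54e-07) ran opposite to Cd44. Srgn, the proteoglycan serglycin, which CD44 can bind, was higher in Th0 than in naive (507 and 469 against 213 and 340.4 CPM; log2 0.82, SE 0.18, edgeR adjusted p = 0.00269). Adam17, a protease that sheds adhesion receptors, was lower (68.7 and 72.1 against 144 and 136 CPM; log2 -0.99, SE 0.18, edgeR adjusted p = 0.000856).

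Other adhesion molecules of T cells had 21 tested genes of 22 listed. In Th0 against naive 5 were higher and 11 lower, in Th17 against Th0 4 higher and 6 lower, and in Treg against Th0 8 higher and 7 lower (medians -0.35, 0.13 and -0.03), which is 76.2%, 47.6% and 71.4% of the list beside 67.7%, 28.7% and 46.2% of all genes. The 10 calls for Th17 became 6 without Th0 replicate 3 and 6 without Th17 replicate 2, and the 15 for Treg became 9 without Treg replicate 3. Cd96, a nectin-family receptor of T and NK cells, had 88.4 and 103 CPM in naive, 23.7 and 18.3 in Th0, 154 and 125 in Treg, and 27.6 and 23.6 in Th17. By their means the groups were ordered as for Itgae, with the libraries of Th17 and Th0 overlapping. The 7 NK cell markers summed to 84.3 and 79 CPM in naive, 15.4 and 15.6 in Th0, 79.4 and 68.8 in Treg, and 10.8 and 10.2 in Th17. Despite the near sums, 1 of them was called higher and 4 lower in Treg than in naive (71.4% called, beside 56.6% of all tested genes). Their part in the Cd96 values was not tested. Cd96 was higher in Treg than in Th0 (log2 2.73, SE 0.17, edgeR adjusted p = 1.54e-05). Jaml, a junctional adhesion molecule listed as Amica1 in the table and matched by its gene ID, went from 5.28 and 2.85 CPM in Th0 to 18.01 and 18.4 in Treg (log2 2.15, SE 0.26, edgeR adjusted p = 0.000249). Cd48, a ligand of CD2 and 2B4, went from 42.7 and 34.0 to 112 and 89.8 CPM (log2 1.40, SE 0.15, edgeR adjusted p = 0.000125). Both genes were highest in naive, at 30.9 and 34.7 CPM for Jaml and 141 and 138 for Cd48. The myeloid markers given above were highest in naive too, and their part in these values was not tested.

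Likeness to the adhesion genes was ranked among 9006 genes with a mean of at least 10 CPM by the Pearson r of log2 CPM over the 8 libraries. The libraries fall into 4 groups and share depth and composition, so these values describe the profiles and carry no test. The gene most like Itgae was Stx2, a syntaxin (0.9949), and then Slc25a11, a mitochondrial carrier (0.9868). Itgb7 was closest to Fut8, a fucosyltransferase (0.9923), and Itga4 to Pip4k2a, a phosphoinositide kinase (0.9971). Itgb1 was closest to M6pr, a mannose 6-phosphate receptor (0.9954), and Itgal to Adrbk2, a kinase that acts on G protein-coupled receptors (0.9967). The value was 0.9911 for Cd44 with Qpctl. It was lower for Itgb2 with Agtrap (0.9543) and for Itgav with Stambp (0.9395), the genes with the narrowest range and with the widest spread between replicates. No gene of the set was among the nearest pair of another.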

How the data were processed

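RNA-seq of 8 libraries was analysed, with groups and replicate numbers from the sample titles. Per the labels' protocols, RNA was extracted with TRIzol and sequenced on an Illumina HiSeq. The submitters' processing notes name Bowtie2, RSEM, GRCm38.p6 and mm10; the tools' roles and versions, the annotation and the strandedness are not given in the sources used here. Per the file headers, the deposited table holds a count and an FPKM value per gene and library. The deposited FPKM equal count over library total and a fixed gene length for 100.0% of 134607 values above 0, within a relative tolerance of 0.001. Of the IDs, 34267 are in GENCODE M21, and 80.8% of those have identical coordinates.

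Counts were tested with edgeR 4.0.16 (limma 3.58.1, R 4.3.3), in 1 fit of 4 group means with no block, after filterByExpr and TMM scaling (common biological coefficient of variation 0.13, 4 residual degrees of freedom). SE is the log2 fold change over the square root of F. A call needs an adjusted p (Benjamini-Hochberg, over 14690 genes per comparison) under 0.05. A count of 0 allows up to 0.134 to 0.24 CPM per library at 3 counts, for counting error only. The scripts were tested on simulated data. Alternatives were RLE, upper-quartile and library-total scaling, DESeq2 1.42.0, limma-voom, other filters, fits of 2 groups, a replicate block, a test against a 2-fold change, and each library left out.

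The 9 members and the 16 gene lists were chosen with earlier results of these data known. All 9 were named in every comparison. Of each pathway list, up to 4 called genes per comparison with the largest change and at least 10 CPM could be named; Cdh1, Madcam1, Itgb3, the markers Csf1r, Foxp3 and Il17a, and genes overlapping members were named for their role. The nearest profile to Itga6 is not reported here.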

Additional observations from a re-analysis of the deposited data

How the results depend on the processing

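Across 18 alternatives, 891 of 972 log2 fold changes of the 9 genes kept their direction and side of the threshold, 62 lost the call, 11 gained one and 8 changed sign. The sign changes were all of differences that were not called. They were Itga6 in Treg against Th0 with library totals (0.0755), Itgb2 in Th0 against naive with upper-quartile scaling (-0.0156) and library totals (-0.101), Itgav in Th17 against Th0 with the replicate block (-0.1086) and without Th17 replicate 3 (range over single libraries left out -0.5003 to 0.6258), Itgav in Th17 against Treg without Th17 replicate 3 (-0.036 to 1.092), Itgav in Treg against naive without naive replicate 1 (-0.2019 to 0.8924), and Itgb7 in Th17 against Th0 without Th17 replicate 3 (-0.0264 to 0.1321).

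A test against a 2-fold change, which asks for more than a difference from 0, called 4231 genes in Th0 against naive, 482 in Th17 against Th0, 930 in Treg against Th0, 456 in Th17 against Treg, 3580 in Th17 against naive and 2983 in Treg against naive. Of the 9 genes it called 4, 1, 1, 1, 2 and 3 in the same order. With single libraries left out, genes called ran from 2630 to 4190 in Th17 against Th0 and from 1878 to 4338 in Th17 against Treg, and the members called in the latter from 3 to 7.

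The labels do not say that the replicate numbers mark a shared animal or batch. Deviations of same-numbered libraries from their group means correlated at -0.029 to 0.125, over 0.1 in 4 of 7 pairs. The 2 deviations within a group mirror each other, so the 2 pairs of Th17 with Treg hold the same value (0.103) and are not separate observations. A pairing was not established. With the replicate number as a block, 7, 6, 5, 5, 6 and 6 of the 9 genes were called, in the order of comparisons above, and 9200, 3101, 5599, 4165, 8242 and 7334 of all genes. Not called with the block were Itgb2 in Th17 against Th0 (adjusted p = 0.103) and naive (0.079) and Itga4 in Treg against Th0 (0.106). With 2 libraries a group, small differences such as those of Itgb2, of Itga6 between naive and Th0, and of Itga4 between Treg and Th0 lay near the limit of what was called. The least covered value was that of Itgae in Th0, with 85 and 62 counts. With the longest coding transcript as length, 27 of 32 mean subunit ratios moved by more than the spread between replicates.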
